A study of Homo sapiens with 6 samples.

Results

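The 10 genes described here encode proteins of the epithelial adherens junction (CDH1, CTNNA1, CTNND1), of the tight junction (CLDN3, CLDN4, CLDN7, OCLN, TJP1, F11R) and the adhesion molecule EPCAM. They were chosen by symbol as junction genes, and all 10 were found among the 14456 genes of the table and passed the filter on low values. RNA was sequenced from C4-2, a castration-resistant prostate cancer line derived from LNCaP, in 3 libraries of cells given the fatty acid synthase (FASN) inhibitor IPI-9119 (100 nM, 6 days) and in 3 libraries of cells given 0.1% DMSO. All cells were grown in RPMI medium with 10% fetal bovine serum, and the labels call the line epithelial-like. Whether replicates came from separate cultures is not stated in the labels, and p-values here reflect only library-to-library spread, possibly technical.

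Adherens junctions hold neighbouring epithelial cells together through E-cadherin, whose cytoplasmic tail binds p120-catenin and beta-catenin, and alpha-catenin couples that complex to actin. Tight junctions lie nearer the cell apex and seal the gap between cells: claudins polymerise into strands, occludin and JAM-A accompany them, and the scaffold ZO-1 anchors them to the cytoskeleton. Luminal prostate cells, from which this line descends, normally carry both kinds of junction.

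The junction genes moved apart. TJP1, CTNNA1, CDH1 and CTNND1 fell, OCLN, CLDN4, F11R and CLDN7 rose, and EPCAM and CLDN3 did not pass the test. TJP1 had the largest difference, from 8615 ± 705 normalised counts with DMSO to 2093 ± 290 with IPI-9119 (mean ± SD, n = 3), 4.12-fold lower. A normalised count is a read count divided by a size factor of its library, and a gene was called at an adjusted p under 0.05 (limma on log2(value + 1)). By that rule 4 of 10 were higher and 4 lower, against 31.3% and 31.4% of all 14437 genes tested (62.8% together), so the share of junction genes called in each direction lies near that of genes at large. All treated libraries lay above all controls for 5 junction genes and below them for 4, against 34% and 33.9% of all genes (67.9% together). Their median log2 fold change was 0.086, against 0.0017 over all genes tested.

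Total reads ran from 19090749 to 20422882 in the IPI-9119 libraries and from 21952620 to 23448035 in the DMSO libraries, and replicates of either group were more different than counting noise allows. FASN itself, the target of the inhibitor, stood at -0.31 on the log2 scale and did not pass (adjusted p 0.112), and its value depends on the processing. It was called lower without IPI-9119 replicate 3 (-0.40, adjusted p 0.0225) and with edgeR (adjusted p 0.0274), lay at -0.13 without IPI-9119 replicate 1 (adjusted p 0.0773), and was called higher with length and GC corrected (0.84, adjusted p 2.1e-08). The luminal keratins KRT8 (9963 ± 351 normalised counts with DMSO) and KRT18 (13813 ± 491) were abundant. Both fell with IPI-9119, to 6588 ± 253 (-0.60, or -0.23 with length and GC corrected, adjusted p 8.28e-08 and 0.00425) and 6809 ± 230.4 (-1.02, adjusted p 2.95e-10), and the part of this shift in the junction results was not tested. Of 11 leukocyte and endothelial markers, only VWF and KDR were among the genes analysed here. Their summed level was 64.2 to 64.4 normalised counts with DMSO and 47.4 to 75.3 with IPI-9119. Of 8 fibroblast and smooth muscle markers, ACTA2 and TAGLN were analysed, with sums of 34.9 to 46.2 and 30.8 to 40.1. Of these, ACTA2 rose from 5.19 ± 4.34 to 16.2 ± 2.47 (adjusted p 0.00985), and TAGLN fell from 36.2 ± 7.08 to 19.4 ± 2.55 (adjusted p 0.0116, and 0.068 without DMSO replicate 2). Neither KDR (-1.62, adjusted p 0.188) nor VWF passed. With length and GC corrected VWF was called higher, beside 30.7% of all genes, and KDR did not pass (adjusted p 0.154). Single libraries decide the value of KDR, which was -2.63 without IPI-9119 replicate 2 (adjusted p 0.0138) and -0.31 without IPI-9119 replicate 3 (adjusted p 0.565). The part of such low markers in the junction results was not tested. Of 7 basal epithelial markers 2 were analysed and neither passed, ITGA6 with -0.088 (adjusted p 0.321). With length and GC corrected 1 was called higher and 1, ITGA6, lower (-0.19, adjusted p 0.0206), beside 30.7% and 34.1% of all genes. In bulk RNA, fewer cells of a type and less RNA per cell cannot be told apart.

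Sequence before annotated starts is shown for TJP1, the junction gene with the largest fall, and for the claudin genes CLDN3, which did not pass the test, and CLDN7, which rose, because claudins bind ZO-1. The windows are the 250 bases before a RefSeq start (GRCh38.p14), 5′ to 3′ on the strand of the gene, at chr15:29969050-29969299 (minus strand), chr7:73770271-73770520 (minus strand) and chr17:7263214-7263463 (minus strand). None of these windows overlaps an exon of its own gene in GENCODE 29. Capitals mark CAGGTG, the E-box letters bound by SNAI and ZEB repressors, and GGGCGG, the GC box, on either strand.
TJP1: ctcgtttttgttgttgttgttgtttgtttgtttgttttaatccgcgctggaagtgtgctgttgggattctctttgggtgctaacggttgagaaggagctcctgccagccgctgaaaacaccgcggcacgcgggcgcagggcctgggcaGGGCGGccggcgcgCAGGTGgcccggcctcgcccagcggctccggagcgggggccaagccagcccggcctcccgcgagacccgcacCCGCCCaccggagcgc
CLDN3: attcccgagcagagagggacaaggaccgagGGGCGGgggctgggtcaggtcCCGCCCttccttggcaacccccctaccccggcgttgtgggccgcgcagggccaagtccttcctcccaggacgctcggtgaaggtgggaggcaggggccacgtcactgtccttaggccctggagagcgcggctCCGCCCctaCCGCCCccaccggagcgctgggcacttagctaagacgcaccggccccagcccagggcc
CLDN7: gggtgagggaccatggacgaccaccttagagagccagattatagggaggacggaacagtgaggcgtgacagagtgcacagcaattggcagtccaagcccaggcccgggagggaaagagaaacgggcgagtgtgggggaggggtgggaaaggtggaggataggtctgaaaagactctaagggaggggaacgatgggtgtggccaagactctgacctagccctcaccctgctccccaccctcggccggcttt
The printed TJP1 window held 1 CAGGTG, from 88 to 83 bases before the start, and 2 GC boxes. Windows before other RefSeq starts of TJP1 (chr15:29822469-29822718, 29821480-29821729 and 29820675-29820924, not printed) held no CAGGTG. The CLDN3 window held 4 GC boxes and no CAGGTG, and the CLDN7 window held neither. A second CLDN7 window, before another RefSeq start and within GENCODE exons of the gene (chr17:7262479-7262728, not printed), held 4 CAGGTG and 1 GC box. Over all their windows, CAGGTG was found for 3 of 6 junction genes with an entry: TJP1, which fell, and CLDN7 and OCLN, which rose. Across 35116 promoter windows of this length, 17.5% held CAGGTG and 42.6% held GGGCGG. These shares count single windows. Some of the 6 genes had several windows, so the count of genes cannot be set against these shares. The letters AACCNGTT, the motif of grainyhead-like factors, were in none of the windows of the 6 junction genes with an entry (CTNNA1, CLDN3, CLDN4, CLDN7, OCLN and TJP1) and in 1.49% of all windows. A match is a description of letters and not of a bound site.

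Among the adherens junction genes, CDH1, which encodes E-cadherin, was read at 16549, 17563 and 17689 normalised counts with DMSO and at 11611, 12163 and 12522 with IPI-9119. The groups did not overlap. CDH1 (ENSG00000039068, chromosome 16, 68737225 to 68835548, plus strand, GRCh38, GENCODE 29) fell by 0.51 on the log2 scale (SE 0.046, adjusted p 3.43e-07). CTNNA1, alpha-catenin (ENSG00000044115, chromosome 5, 138610967 to 138935034, plus strand), gave 9543, 9772 and 9579 with DMSO and 6214, 6789 and 6587 with IPI-9119. Every treated library was below every control, and CTNNA1 fell by 0.56 on the log2 scale (SE 0.046, adjusted p 1.22e-07). CTNND1, p120-catenin, which stabilises E-cadherin at the membrane (ENSG00000198561, chromosome 11, 57753243 to 57819546, plus strand), gave 6015, 6438 and 6587 against 5131, 5610 and 5817. Here the highest treated library lay close to the lowest control. CTNND1 fell by 0.20 on the log2 scale (SE 0.055, adjusted p 0.0053). That call was lost once length and GC trends of each library were subtracted (-0.085, adjusted p 0.111), and with neither trend nor robust moderation (adjusted p 0.0568).

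The log2 ratio of CDH1 to CTNNA1 within a library was 0.84 ± 0.045 with DMSO and 0.89 ± 0.044 with IPI-9119 (mean ± SD, n = 3), a difference of 0.048 (exact permutation test, two-sided, p 0.3, adjusted p 0.3 over 8 pairs). Between single libraries of the groups that difference ran from -0.044 to 0.13. The ratio of CDH1 to CTNND1 went from 1.44 ± 0.018 to 1.13 ± 0.039, a difference of -0.31 with no overlap (exact permutation p 0.1, adjusted 0.114). With 3 libraries against 3, 0.1 is the smallest p this test can give, so no pair could pass the threshold. Thus E-cadherin and alpha-catenin transcripts went down by amounts that were not told apart. p120-catenin transcripts went down by less on average, with the CDH1 to CTNND1 ratio lower in every treated library than in every control.

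**Figure D1:**
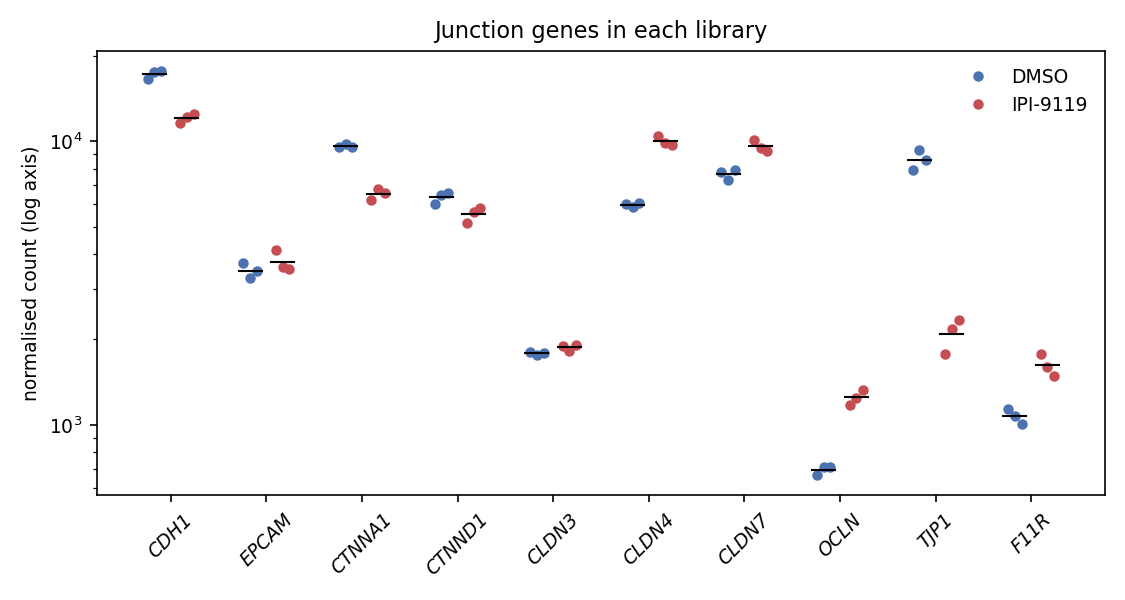
Normalised counts (log axis) of the 10 junction genes in each of the 3 DMSO (blue) and 3 IPI-9119 (red) libraries, with replicates 1 to 3 from left to right and lines at the group means. TJP1 goes from 8615 to 2093 on average, while OCLN goes from 693 to 1250, and the groups of EPCAM overlap.

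EPCAM, a homophilic adhesion molecule that binds claudin-7 at the lateral membrane (ENSG00000119888, chromosome 2, 47345158 to 47387601, plus strand), gave 3721, 3291 and 3473 normalised counts with DMSO and 4122, 3601 and 3552 with IPI-9119. Replicate 1 was the highest of its group in both, and the groups overlapped. The log2 fold change of EPCAM was 0.10 (95% interval -0.033 to 0.24, adjusted p 0.172). Corrected for length and GC, EPCAM was at -0.085 (adjusted p 0.199).

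Of the claudins, CLDN4 gave 6007, 5848 and 6043 normalised counts with DMSO and 10454, 9855 and 9713 with IPI-9119. The treated libraries stood well above the controls. CLDN4 (ENSG00000189143, chromosome 7, 73799542 to 73832693, plus strand) rose 1.68-fold, by 0.75 on the log2 scale (SE 0.045, adjusted p 5.56e-09). CLDN3, its neighbour 29271 nt away on the opposite strand (ENSG00000165215, chromosome 7, 73768997 to 73770270, minus strand), gave 1803, 1763 and 1792 against 1897, 1817 and 1908. Its libraries did not overlap between groups, but the difference was small, 0.069 (95% interval -0.040 to 0.18, adjusted p 0.250). After the correction it was -0.014. CLDN7, the claudin that EPCAM binds (ENSG00000181885, chromosome 17, 7259903 to 7263983, minus strand), gave 7810, 7318 and 7920 against 10081, 9440 and 9257. All treated libraries were above the controls, and CLDN7 rose by 0.32 (SE 0.049, adjusted p 5.85e-05).

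The 3 claudins differed in how far they moved. The log2 ratio of CLDN4 to CLDN3 went from 1.74 ± 0.012 with DMSO to 2.42 ± 0.061 with IPI-9119 (mean ± SD, n = 3), by 0.68 (exact permutation p 0.1). That of CLDN7 to CLDN3 rose by 0.25 and that of CLDN7 to CLDN4 changed by -0.43, and that of EPCAM to CLDN7 changed by -0.22, each with no overlap (exact permutation p 0.1, adjusted 0.114). EPCAM and CLDN7 transcripts differ by 27 nt in exonic length, and their ratio differed by -0.35 after the length and GC correction.

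In all, 7 claudins passed the filter on low values. The other four were CLDN12, from 2886 ± 78.7 to 6788 ± 161 normalised counts (log2 fold change 1.23, adjusted p 3.92e-11), CLDN23, from 111 ± 19.3 to 277 ± 19.1 (1.32, adjusted p 1.32e-06), CLDN8, from 303 ± 6.52 to 172 ± 34.8 (-0.83, adjusted p 0.00012), and CLDN15, from 66.4 ± 14.3 to 35.9 ± 12.1 (-0.90, adjusted p 0.00871). CLDN12, CLDN8 and CLDN15 were named after their values were seen, to complete the family. Per kilobase of exons, the summed claudin level was 6197 to 6520 in the DMSO libraries and 8485 to 9015 in the IPI-9119 libraries. CLDN7 made up 48.1% ± 0.689 of it with DMSO and 44.3% ± 0.546 with IPI-9119 (mean ± SD, n = 3). CLDN3 made up 21.9% ± 0.386 and 17.0% ± 0.609, CLDN4 19.8% ± 0.214 and 24.5% ± 0.159, and CLDN12 6.69% ± 0.0051 and 11.6% ± 0.301. The summed claudin level was thus higher in every IPI-9119 library, with a larger share of CLDN4 and CLDN12 and a smaller share of CLDN3 and CLDN7, none of which was tested. These shares depend on the exonic length, for which all annotated exons of a gene were merged.

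**Figure D2:**
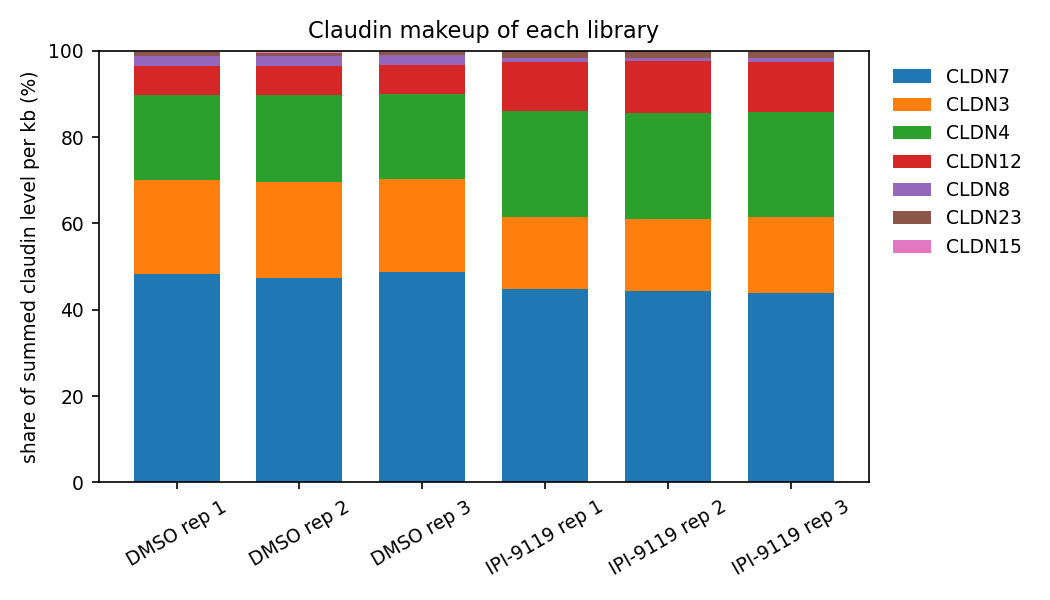
Share (%) of each of 7 claudins in the summed claudin level per kilobase of exons, as stacked bars for each library. CLDN4 takes 19.8% on average with DMSO and 24.5% with IPI-9119, and CLDN3 takes 21.9% and 17.0%.

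Occludin and JAM-A, the other tight junction membrane proteins among the 10, rose. OCLN, occludin (ENSG00000197822, chromosome 5, 69492292 to 69558104, plus strand), gave 664, 708 and 708 normalised counts with DMSO and 1171, 1248 and 1332 with IPI-9119. The groups were far apart, 1.80-fold on average (log2 fold change 0.85, SE 0.068, adjusted p 9.53e-08). F11R, which encodes the adhesion molecule JAM-A (ENSG00000158769, chromosome 1, 160995211 to 161021348, minus strand), gave 1141, 1072 and 1004 against 1780, 1602 and 1484. F11R rose by 0.59 (SE 0.073, adjusted p 7.13e-06). Among relatives named after their values were seen, the JAM-like receptor CXADR rose (0.50, adjusted p 1.43e-06) and JAM3 did not pass (0.31, adjusted p 0.152). Of the occludin relatives, MARVELD3 fell (-0.38, adjusted p 0.00395) and tricellulin, MARVELD2, did not pass (0.14, adjusted p 0.0583).

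TJP1, which encodes the scaffold ZO-1 (ENSG00000104067, chromosome 15, 29699367 to 29968865, minus strand), was read at 7935, 9342 and 8567 normalised counts with DMSO and at 1772, 2172 and 2335 with IPI-9119. The highest treated library was far below the lowest control. TJP1 fell by 2.05 on the log2 scale (SE 0.098, 95% interval -2.27 to -1.83, adjusted p 6.89e-08), and only 1.67% of all genes tested were at or below that value. Over all alternatives and left-out libraries the value for TJP1 ran from -2.13 to -1.89. The log2 ratio of OCLN to TJP1 went from -3.63 ± 0.078 to -0.74 ± 0.12 (SD, n = 3), a difference of 2.90, and that of F11R to TJP1 from -3.00 ± 0.18 to -0.36 ± 0.34, a difference of 2.64 (exact permutation p 0.1, adjusted 0.114, for each). The shift of these ratios was many times their spread within a group.

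The ZO-1 relative TJP3 did not pass, at -0.079 (adjusted p 0.520), but was 0.29 and past the threshold with length and GC corrected (adjusted p 0.0255). The plaque proteins cingulin, CGN (-1.28, adjusted p 1.3e-05), and paracingulin, CGNL1 (-1.80, adjusted p 1.63e-08), fell. TJP3 was named after its value was seen.

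**Figure D3:**
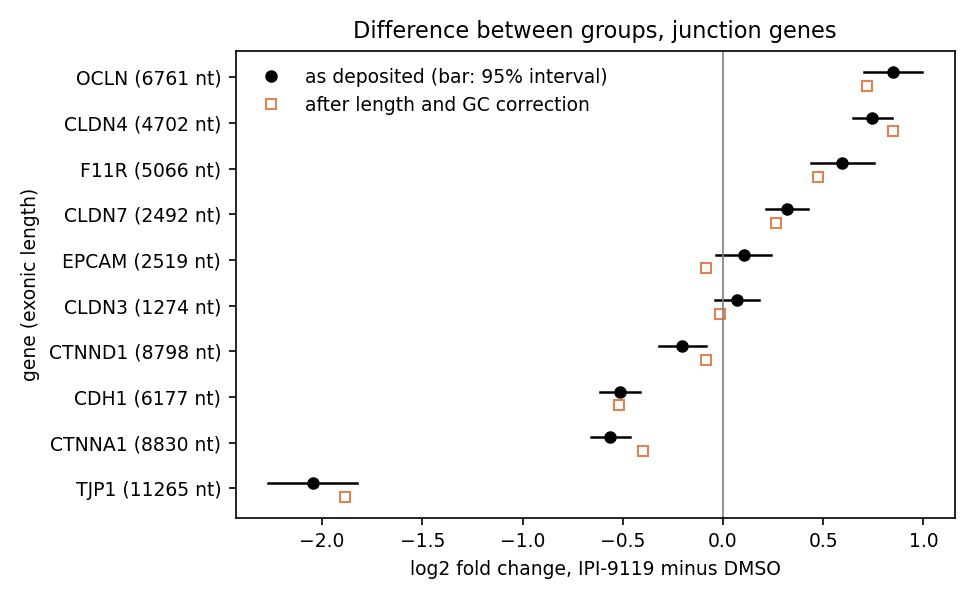
Log2 fold change, IPI-9119 minus DMSO, of each junction gene with its 95% interval (black) and after subtraction of length and GC trends (orange squares), with exonic lengths beside the names. TJP1 stays near -2 in both, and EPCAM and CLDN3 change sign.

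Per kilobase of exons and with DMSO, CLDN7 (3083 ± 129) and CDH1 (2795 ± 101.2) had the highest levels, followed by CLDN3 (1402), EPCAM (1387), CLDN4 (1269), CTNNA1 (1091), TJP1 (765), CTNND1 (721), F11R (212) and OCLN (103). The median over all genes was 80.9. The libraries of CLDN3 and EPCAM overlapped in that order, and so did those of TJP1 and CTNND1. With IPI-9119, CLDN4 moved from rank 5 to rank 2, CLDN7 stayed first, and TJP1 (186 ± 25.7) came down to the level of OCLN (185 ± 11.9), the libraries of both overlapping.

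The junction genes also differed in exonic length, which moved with the group difference across the transcriptome. Of 2782 genes over 8000 nt, 46.3% were lower and 23.5% higher (median log2 fold change -0.17), against 20.8% lower and 34.8% higher of 6088 genes of up to 4000 nt (median 0.10). The 3 junction genes over 8000 nt, CTNNA1 (8830 nt), CTNND1 (8798 nt) and TJP1 (11265 nt), all fell. Of the genes over 8000 nt, 3.92% were at or below the value of TJP1. Among those of intermediate length CDH1 (6177 nt) fell, and OCLN (6761 nt), F11R (5066 nt) and CLDN4 (4702 nt) rose. After the correction for length and GC content, TJP1 was -1.89, CTNNA1 -0.40, CDH1 -0.52, CLDN4 0.85, OCLN 0.72, F11R 0.48 and CLDN7 0.26, all still past the threshold (adjusted p between 2.42e-14 and 0.000145). With that correction 4 junction genes were higher and 3 lower, against 30.7% and 34.1% of all genes (64.8% together).

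**Figure D4:**
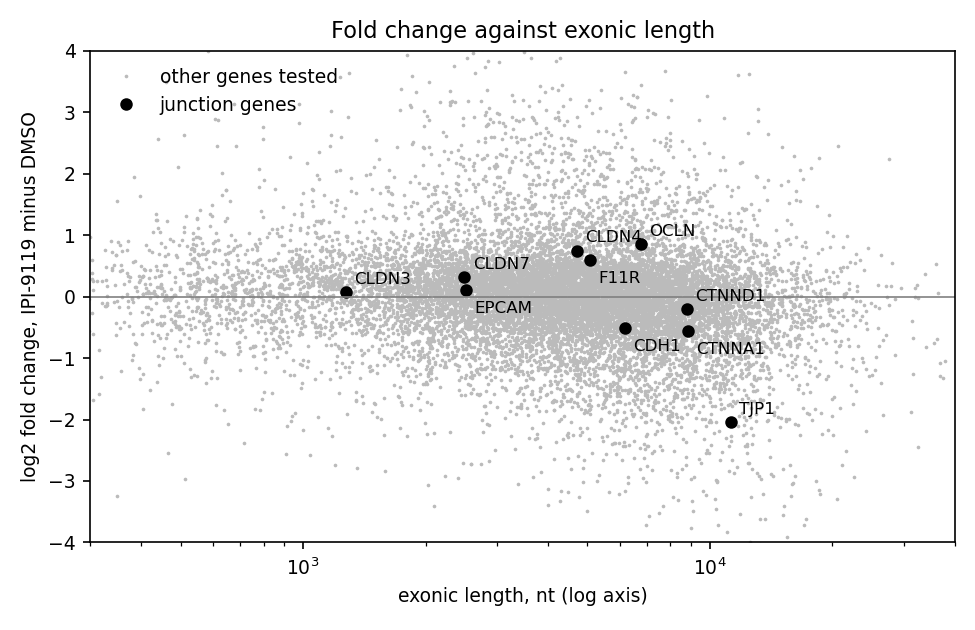
Log2 fold change against exonic length (nt, log axis) for 14298 of the genes tested (grey; 94 lie outside the axes), with the junction genes in black. TJP1, at 11265 nt and -2.05, lies in the lower part of the cloud, and OCLN, at 6761 nt and 0.85, in the upper part.

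Some of the 10 genes overlap other annotated genes, and the strand setting of the counting is not given in the sources used here. TJP1 overlaps the antisense gene ENSG00000259523, which fell as well (-1.15, adjusted p 8.31e-06). CTNNA1 overlaps the antisense gene CTNNA1-AS1 (-0.53, adjusted p 0.0401). The libraries of CTNNA1-AS1 overlapped between groups, and edgeR did not call it (adjusted p 0.051). These antisense genes were low, at 196 and 104 normalised counts with DMSO. F11R overlaps a read-through gene on its own strand, ENSG00000270149, at 12.7 normalised counts with DMSO. CTNND1 and CLDN7 overlap read-through genes that were not analysed here, so their separate levels are uncertain.

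Beyond these 10, the other adherens junction genes mostly fell: of 14 tested, 10 were lower, 2 higher and 2 not past (median log2 fold change -0.38), where 31.4% of all genes were lower and 31.3% higher. Their median exonic length was 7618 nt, and with length and GC corrected 8 were lower and 3 higher. Plakoglobin, JUP, which can take the place of beta-catenin on cadherins, fell from 5074 ± 108 to 1415 ± 142 normalised counts (SD, n = 3; -1.85, adjusted p 2.76e-11). NECTIN1, a nectin adhesion receptor, fell from 460 ± 64.3 to 144 ± 23.6 (-1.68, or -0.995 with length and GC corrected). Beta-catenin itself, CTNNB1, fell by 0.30 (adjusted p 3.75e-05; named after its value was seen). The alpha-catenin relatives CTNNA2 (0.71, adjusted p 0.00351) and CTNNA3 (1.37, adjusted p 0.00848) rose from 44.9 ± 2.88 and 8.30 ± 3.74 normalised counts. Per kilobase of exons their levels with DMSO were 5.96 and 0.745, against 1091 for CTNNA1.

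Among 19 other tight junction genes, 11 were lower, 4 higher and 4 not past (median -0.45), beside 31.4% and 31.3% of all genes. With length and GC corrected 10 were lower and 5 higher. ILDR2, of tricellular junctions, was near the limit of detection, with 3, 2 and 3 reads under DMSO and 13, 23 and 22 under IPI-9119. Of 7 desmosome genes, which build the other cadherin-based junction, 4 were lower, 1 was higher and 2 missed the threshold (median -0.36), beside the same shares of all genes. Desmoplakin, DSP, which ties desmosomes to keratin filaments, fell from 3771 ± 313 to 1016 ± 182 (-1.90, adjusted p 1.35e-06) and plakophilin PKP2 from 559 ± 21.8 to 321 ± 14.7 (-0.80, adjusted p 1.27e-06). PERP, a desmosomal membrane protein gene, rose from 3593 ± 136 to 5039 ± 211 (0.49, adjusted p 1.15e-06).

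**Figure D5:**
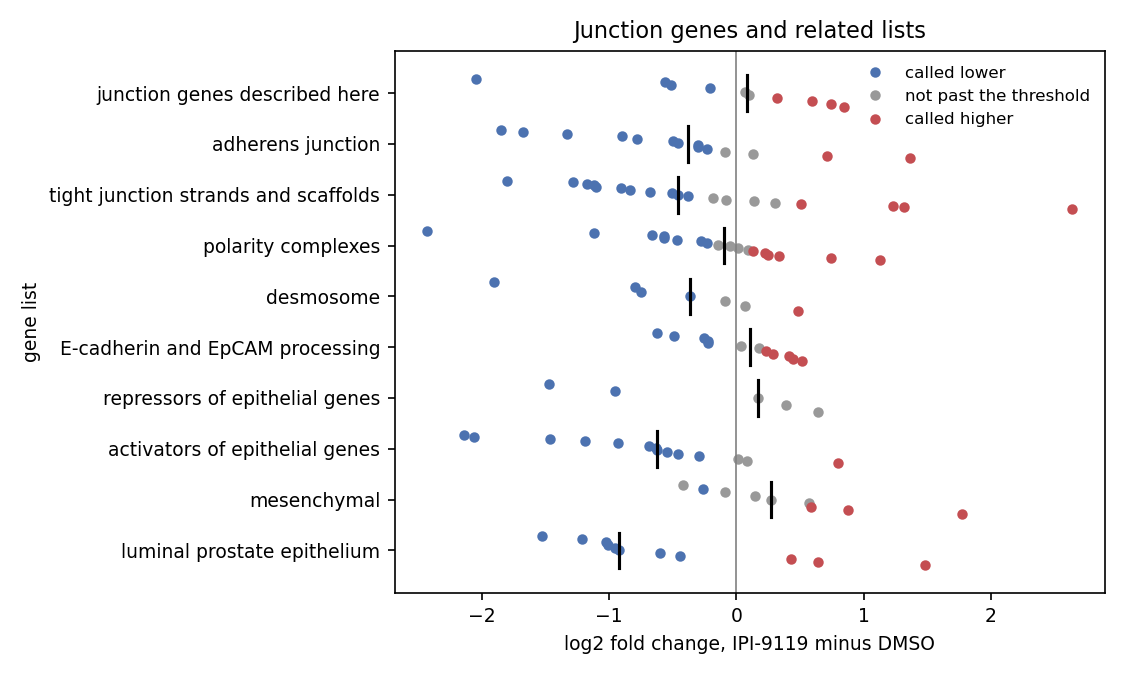
Log2 fold change of every tested gene of the junction genes and of 9 related lists, coloured by call, with black lines at list medians. The medians are 0.086 for the 10 junction genes, -0.38 for other adherens junction genes, -0.45 for other tight junction genes and -0.62 for activators of epithelial genes.

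Transcription factors that sustain epithelial genes were lower in most cases: of 14 tested, 11 fell, 1 rose and 2 did not pass (median -0.62), beside 31.4% of all genes lower and 31.3% higher. KLF4 fell from 784 ± 28.6 to 181 ± 48.4 normalised counts (-2.14, adjusted p 2.33e-07) and KLF5 from 706 ± 36.1 to 168 ± 14.3 (-2.06, adjusted p 3.34e-10), while ELF3 rose (0.80, adjusted p 2.27e-05). GRHL2, a grainyhead-like activator of CDH1 and claudin genes, fell from 3959 ± 247 to 2084 ± 202 (-0.93, adjusted p 5.49e-08; named after its value was seen). Of the repressors of epithelial genes 5 of 11 were tested, with 0 higher, 2 lower and 3 not past by limma, beside the same shares of all genes. With edgeR 0 were higher and 2 lower. TCF3 (-0.95, adjusted p 2.6e-06, or -0.43 with length and GC corrected) and SNAI3 (-1.47, adjusted p 0.0129, at 15.3 normalised counts with DMSO) fell. SNAI1 (11.7 ± 4.77 against 18.1 ± 4.42, adjusted p 0.167) and SNAI2 (70.6 ± 13.7 against 92.8 ± 17.7, adjusted p 0.0943) did not pass, and ZEB1, ZEB2, TWIST1 and TWIST2 were not analysed here.

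Of 9 mesenchymal genes, 3 were higher, 1 was lower and 5 missed the threshold (median 0.28), beside 31.3% of all genes higher and 31.4% lower. With length and GC corrected 4 were higher and 0 lower, beside 30.7% and 34.1% of all genes. The lysyl oxidase gene LOX rose from 102 ± 21.0 to 186 ± 13.9 (0.88, adjusted p 0.000262), and the matrix protein gene TGFBI from 3.99 ± 1.43 to 17.4 ± 9.09 (1.77, adjusted p 0.00755), a call lost without IPI-9119 replicate 2 (adjusted p 0.0514). The fibronectin receptor gene ITGA5 fell (-0.26, adjusted p 0.0334). That call was lost on leaving out any of 4 libraries (DMSO replicate 2 or 3, IPI-9119 replicate 1 or 2, adjusted p 0.0749 to 0.115), and after the length and GC correction the value was 0.095. Luminal prostate genes gave 3 higher and 8 lower of 11 (median -0.92), and KRT19, a keratin gene, was among those that rose (1.48).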

How the data were processed

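PolyA-selected RNA of 6 libraries was measured. The deposited table holds a signal, read counts scaled by a size factor per library: low values are whole multiples of 1 read, and 100% came out whole within 0.01 read. Per the submitters' processing notes, which give no roles, the tools were STAR 2.5.2b, Trimmomatic 0.36, Subread 1.5.2, featureCounts and DESeq2, with build GRCh38. The annotation release and strand setting are not given in the sources used here. Of the 14456 genes, 14437 had a mean of at least 10 and were tested with limma 3.58.1 (R 4.3.3; trend and robust moderation) on log2(value + 1), two-sided, with Benjamini-Hochberg adjustment over all genes. That scale understates the change of low genes. Read counts recovered from the values went into edgeR 4.0.16 and DESeq2 1.42.0 as alternatives, which called 9072 and 8460 genes against 9061 with limma. Partner pairs were compared by exact permutation of 6 libraries. The correction subtracted, per library, a spline (4 degrees of freedom each, with interaction) on log2 exonic length and GC percent (GENCODE 29). The length limits of 4000 and 8000 nt were set after seeing the data. Tests were tested on simulated counts.

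The junction genes and the 12 related lists were chosen with earlier results of these data known. Named from each list were the 2 called genes with the largest rise and the 2 with the largest fall (1 each way for the markers of cell types), or the gene with the smallest p where none was called. Depth limits the precision of low genes most. A few genes that the rule picks are not reported here.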

Additional observations from a re-analysis of the deposited data

How the results depend on the processing

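CDH1, CTNNA1, CLDN4, CLDN7, OCLN, TJP1 and F11R kept their direction and call under all 18 alternatives, which were other pseudocounts (0.5 and 8), filters (none, and a mean of at least 50), TMM and quantile scaling, other moderation, edgeR, DESeq2, the replicate block, the length and GC correction with and without the block (the former chosen after seeing the data), and each library left out in turn. The length and GC correction reversed the sign of EPCAM (-0.085), CLDN3 (-0.014), ITGA5 (0.095), FASN (0.84) and the log2 ratio of CDH1 to CTNNA1 (-0.12). Of these, FASN was past the threshold (adjusted p 2.1e-08). With 3 libraries in each group the replicate block cannot alter a log2 fold change, so it bears on the calls only. The values of the 4 genes with that correction were therefore the same with the block added. The block was not run on ratios. The cause of the reversed signs was not tested. Whether replicate numbers pair the libraries was not settled. Correlations of deviations were 0.14, 0.063 and 0.0044 for equal numbers and ran from -0.14 to 0.099 for unequal numbers. With the replicate block, 5 junction genes were higher and 4 lower, EPCAM being added (adjusted p 0.0338), KDR (adjusted p 0.0312) and FASN (adjusted p 2.71e-05) were called lower, and 4797 genes were higher and 4799 lower over all genes. Low genes such as SNAI1, ILDR2 and TGFBI are limited by depth.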

Other observations

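Genes of the polarity complexes, which place tight junctions along the apical to basal axis, did not share a direction: of 18, 6 were higher, 8 were lower and 4 missed the threshold (median log2 fold change -0.094), beside 31.3% of all genes higher and 31.4% lower. With length and GC corrected 7 were higher and 5 lower. SCRIB, the basolateral scaffold scribble, went down from 580 ± 64.6 to 107 ± 14.7 normalised counts (SD, n = 3). Its log2 fold change was -2.43, and -1.56 once corrected for length and GC. PARD3B, a relative of the PAR-3 scaffold, fell from 135 ± 17.5 to 61.9 ± 9.04 (-1.12). LIN7A, which encodes a small scaffold of the crumbs and cadherin complexes, rose from 1911 ± 136 to 4192 ± 347 (1.13), and PARD6A, a PAR-6 gene, from 253 ± 24.4 to 424 ± 31.0 (0.75).

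Of 12 genes whose products cut, ubiquitinate or protect E-cadherin and EpCAM, 5 were higher, 5 lower and 2 missed the threshold (median 0.11). Over all genes, 31.3% were higher and 31.4% lower. With length and GC corrected 5 were higher and 3 lower, beside 30.7% and 34.1% of all genes. The sheddase gene ADAM17 (0.52, adjusted p 0.000868) and the gamma-secretase subunit gene APH1A (0.45, adjusted p 6.92e-06) rose. CBLL1, which encodes the E-cadherin ubiquitin ligase Hakai, fell (-0.62, adjusted p 2.19e-07), as did SPINT1, an inhibitor of the protease matriptase (-0.49, adjusted p 1.38e-05). Its relative SPINT2, named after its value was seen, was more abundant, with 8308 ± 301 normalised counts under DMSO against 2122 ± 165 for SPINT1. SPINT2 rose (0.23, adjusted p 0.00188).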
